A study of Mus musculus with 60 samples.

Results

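Resting immortalised mouse ear fibroblasts were compared after 2 h at 34 °C and after 2 h at 37 °C, across all 10122 genes of the deposited expression table. Skin of the limbs and ears is cooler than the body core, and 34 °C is a mild step below the 37 °C at which the cells had been grown. The members are the 6 unstimulated libraries at these temperatures, 3 at 34 °C and 3 at 37 °C, of 60 libraries in the series. All cells came from ears of adult mice that the labels call DKI, and they carried endogenous fluorescent reporters of RelA and c-Rel. The cell line label also reads GR NLS-iRFP-NLS. They had become immortal by repeated passage, without an added oncogene named in the labels, and they are 1 line as far as the labels tell, so the results describe that line. Every dish was grown overnight at 37 °C, then moved to an incubator at 24, 34, 37 or 40 °C for 2 h, and the unstimulated cells were lysed at that point with no cytokine. The 37 °C dishes went through the same transfer. Other dishes were then given 10 ng/mL of a cytokine, either TNF-α or IL-1β, and lysed 1 or 3 h later, after 3 or 5 h at their temperature in all. The labels call the 3 libraries of each group independent biological replicates.

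Immediate-early genes encode transcription factors and mRNA regulators whose transcription starts within minutes of a growth factor, stress or cytokine signal, without new protein synthesis, and whose mRNAs are short-lived. In fibroblasts they are driven by MAP kinase pathways through serum response factor and related factors. The integrated stress response is a separate programme. Kinases that sense amino acid shortage, misfolded protein in the endoplasmic reticulum, viral RNA or haem shortage phosphorylate the initiation factor eIF2α, which lowers general translation and favours the transcription factor ATF4. ATF4, with C/EBP partners, then raises genes for amino acid uptake and synthesis, glutathione turnover and feedback. Mild hypothermia is known in mammalian cells for the RNA-binding proteins CIRBP and RBM3, and heat for cytosolic chaperones.

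The 6 libraries were similar in depth and in their agreement with each other. Their depth is not given in the sources used here. Estimated from the steps between low values, it was 6.19, 6.77 and 6.80 M (mega) fragments at 34 °C, against 5.70, 7.16 and 6.05 M at 37 °C. At that depth 1 FPKM (fragments per kilobase of transcript, scaled to library depth) stands for about 6.45 fragments per kb, so levels of a few FPKM are coarse. Across genes on the log2 scale, Pearson r was 0.976 to 0.980 between replicates of a temperature and 0.976 to 0.981 between temperatures. Fibroblast markers stood high at both, with Col1a1, a chain of type I collagen, at 1106 to 1177 FPKM at 34 °C and 1030 to 1178 FPKM at 37 °C. Of the 12 fibroblast markers listed, 9 were measured and 0 were called, while Lum, Dcn and Fap were not measured. Keratinocyte (1 of 9 measured), macrophage (2 of 8) and endothelial (1 of 7) markers summed to 0.44 to 1.47, 2.48 to 4.48 and 0.05 to 0.16 FPKM at 34 °C, against 1.25 to 2.45, 2.61 to 5.48 and 0.10 to 0.74 FPKM at 37 °C. Of the chondrocyte list (4 of 7 measured) and the muscle and pericyte list (3 of 7), 0 markers were called as well. Both lists were expressed, at sums of 16.9 to 18.4 and 92.7 to 100 FPKM at 34 °C. At 37 °C the sums were 15.5 to 18.4 and 92.7 to 111 FPKM, and most of the second came from Cspg4 and Mcam.

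The step to 34 °C changed few genes within 2 h. Limma was fitted to log2(FPKM + 1) of all 60 libraries, and 37 of 10122 genes (0.366%) passed an adjusted p of 0.05 (Benjamini-Hochberg), here named called. Of these, 19 rose (0.188%) and 18 fell (0.178%), and 10 changed by at least 2-fold on that scale, 4 upwards and 6 downwards. Immediate-early genes led the falls and integrated stress response genes led the rises. In all 37 genes the 3 libraries at 34 °C did not overlap the 3 at 37 °C, which was true of 1163 of all genes (11.5%). The 37 were called on these same libraries, so their separation is no independent check. The median log2 change of all genes was -0.01. These are bulk libraries, in which fewer cells with a transcript and less of it per cell cannot be told apart. The called genes stood at a median of 23.2 FPKM, against 10.4 FPKM over all genes. Of the 37, 35 have gene names and 2 are unnamed models, 1 in each direction.

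These calls rest on a spread that is shared with the other 54 libraries. Each gene has 1 spread for all 20 groups. For Egr1, Fos and Btg2, whose 37 °C libraries varied widely, the SE and p therefore do not measure the spread of the 6 libraries compared. A fit to the 6 libraries alone called 0 genes, with 692 at an unadjusted p below 0.05 and a lowest adjusted p of 0.109, on 4 residual degrees of freedom instead of 40. A limma fit to the 12 unstimulated libraries also called 0 (634 at an unadjusted p below 0.05, lowest adjusted p 0.156), whereas the fit to all 60 had 660 (6.52%) at an unadjusted p below 0.05. In both smaller fits the change of a gene is the same difference between the same 6 libraries, so its sign could not alter. All 37 genes had an unadjusted p below 0.05 there, but they had been picked on these same libraries, so this is no independent check. Dropping 1 library left 21 calls without replicate 1 of 34 °C, 21 without replicate 1 of 37 °C, 16 without replicate 2 of 34 °C and 14 without replicate 3 of 37 °C. An exact permutation test of 3 against 3 libraries cannot go below p = 0.1 for any single gene.

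**Figure D1:**
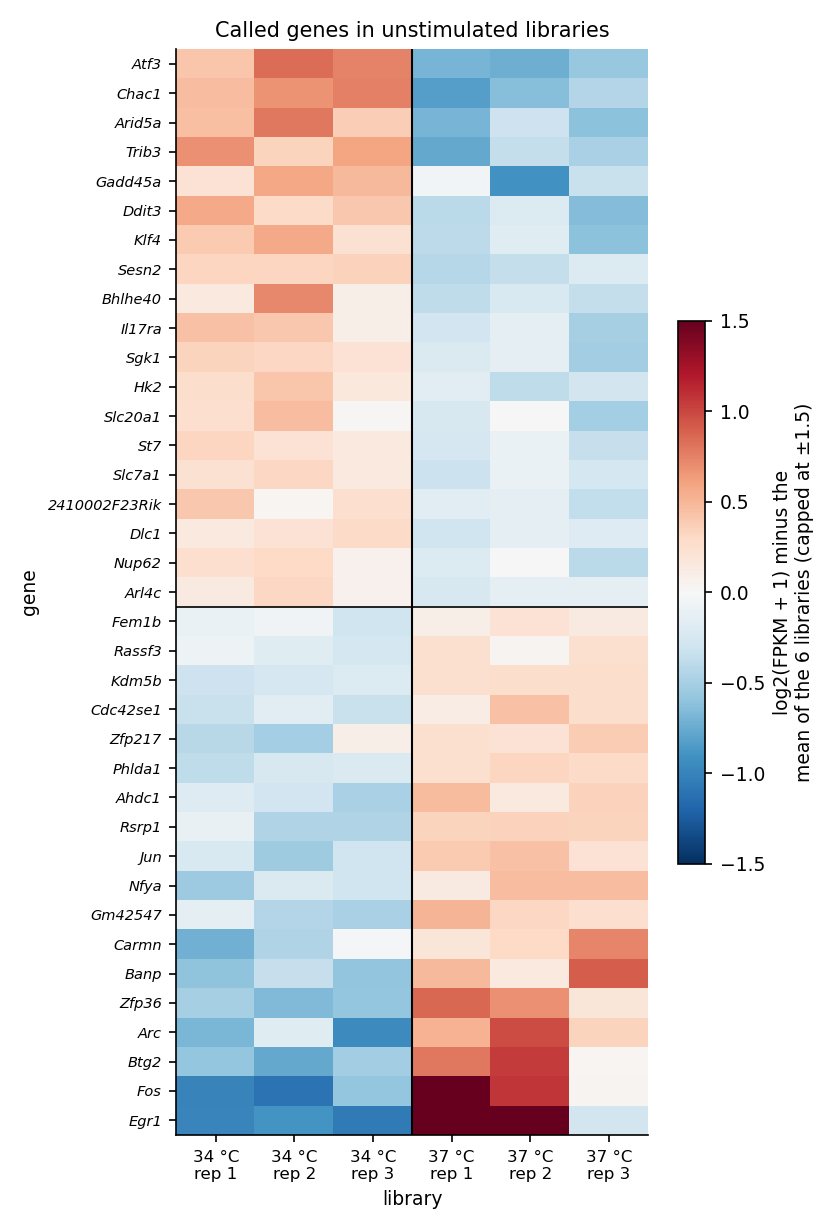
Each row is 1 of the 37 called genes and each column 1 unstimulated library, 34 °C at the left and 37 °C at the right; colour gives log2(FPKM + 1) minus the mean of the 6 libraries, capped at 1.5. The 19 genes above the line are higher in each 34 °C library than in any 37 °C library, and replicate 3 of 37 °C is paler than the other two in Egr1, Fos and Btg2.

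Of 21 measured immediate-early genes, 6 fell at 34 °C and 3 rose, and the median of the list was -0.12. Those that fell were Egr1, Fos, Jun, Arc, Btg2 and Zfp36. Egr1, a zinc finger transcription factor induced by serum and by stretch, had 10.1, 10.8 and 9.57 FPKM at 34 °C, against 63.8, 68.8 and 17.1 FPKM at 37 °C. The 34 °C libraries lay close together and below every 37 °C library, while replicate 3 of 37 °C stood far below the other two. The log2 change was -1.96 (SE 0.30, limma adjusted p = 0.00019), -2.59 without that replicate, and it stayed called without any 1 of the 6 libraries.

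Fos, which forms the AP-1 transcription factor with Jun, had 5.13, 4.69 and 7.20 FPKM at 34 °C, against 35.2, 24.7 and 11.6 FPKM at 37 °C. Again the groups did not overlap, and replicate 3 was the lowest of the 37 °C libraries. Its log2 change was -1.79 (SE 0.35, limma adjusted p = 0.00556). The call for Fos was lost without replicate 1 of 37 °C (log2 change -1.45, adjusted p = 0.118) and without replicate 2 of 34 °C (-1.68, adjusted p = 0.0603). Jun fell less, with 15.3, 12.2 and 14.5 FPKM at 34 °C, against 24.1, 24.8 and 21.2 FPKM at 37 °C, a log2 change of -0.71 (SE 0.11, limma adjusted p = 0.00019). Here the 37 °C libraries were close together. Arc, known in neurons as a regulator of synaptic receptors, had 3.46, 5.33 and 2.71 FPKM at 34 °C, against 9.29, 13.1 and 8.03 FPKM at 37 °C (log2 change -1.22, SE 0.19). Jun and Arc stayed called without any 1 library.

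The other 2 early genes that fell act on mRNA decay. Btg2, which binds the CCR4-NOT deadenylase and slows proliferation, had 13.3, 11.6 and 13.9 FPKM at 34 °C, against 36.2, 43.5 and 20.8 FPKM at 37 °C. Zfp36 encodes tristetraprolin, which brings the same deadenylase to AU-rich mRNAs of cytokines, and had 4.82, 4.20 and 4.49 FPKM at 34 °C, against 13.9, 12.2 and 8.31 FPKM at 37 °C. In both genes the 34 °C libraries were tightly grouped, and replicate 3 was the lowest at 37 °C. Their log2 changes of -1.25 (SE 0.15) for Btg2 and -1.15 (SE 0.14) for Zfp36 had the lowest adjusted p of all genes (limma, 3.83e-07 each), and both stayed called without any 1 library. These SE and p come from 1 spread per gene over all 20 groups. At 37 °C Btg2 ran from 20.8 to 43.5 FPKM, a wider range than at 34 °C (11.6 to 13.9 FPKM). The other 16 of 18 measured mRNA decay genes were not called, and the median of that list was -0.12.

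The 3 early genes that rose were Atf3, Klf4 and Bhlhe40. Klf4, a transcription factor of the Krüppel-like family, had 44.1, 50.0 and 39.2 FPKM at 34 °C, against 25.2, 29.3 and 21.4 FPKM at 37 °C (log2 change 0.79, SE 0.16, limma adjusted p = 0.00556). Bhlhe40, a repressor in the circadian clock, had 33.5, 50.4 and 32.1 FPKM at 34 °C, against 22.9, 25.5 and 23.2 FPKM at 37 °C (log2 change 0.64, SE 0.12, limma adjusted p = 0.00465). Replicate 2 of 34 °C stood above its replicates in both genes and most in Bhlhe40, whose log2 change without it was 0.44 (adjusted p = 0.168). Klf4 was not called without that library (0.71, adjusted p = 0.0842) or without replicate 3 of 37 °C (0.68, adjusted p = 0.116). The 12 measured early genes that were not called ranged from Ier5l at -0.46 (adjusted p = 0.0576) to Nr4a3 at 0.40 (adjusted p = 0.933).

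**Figure D2:**
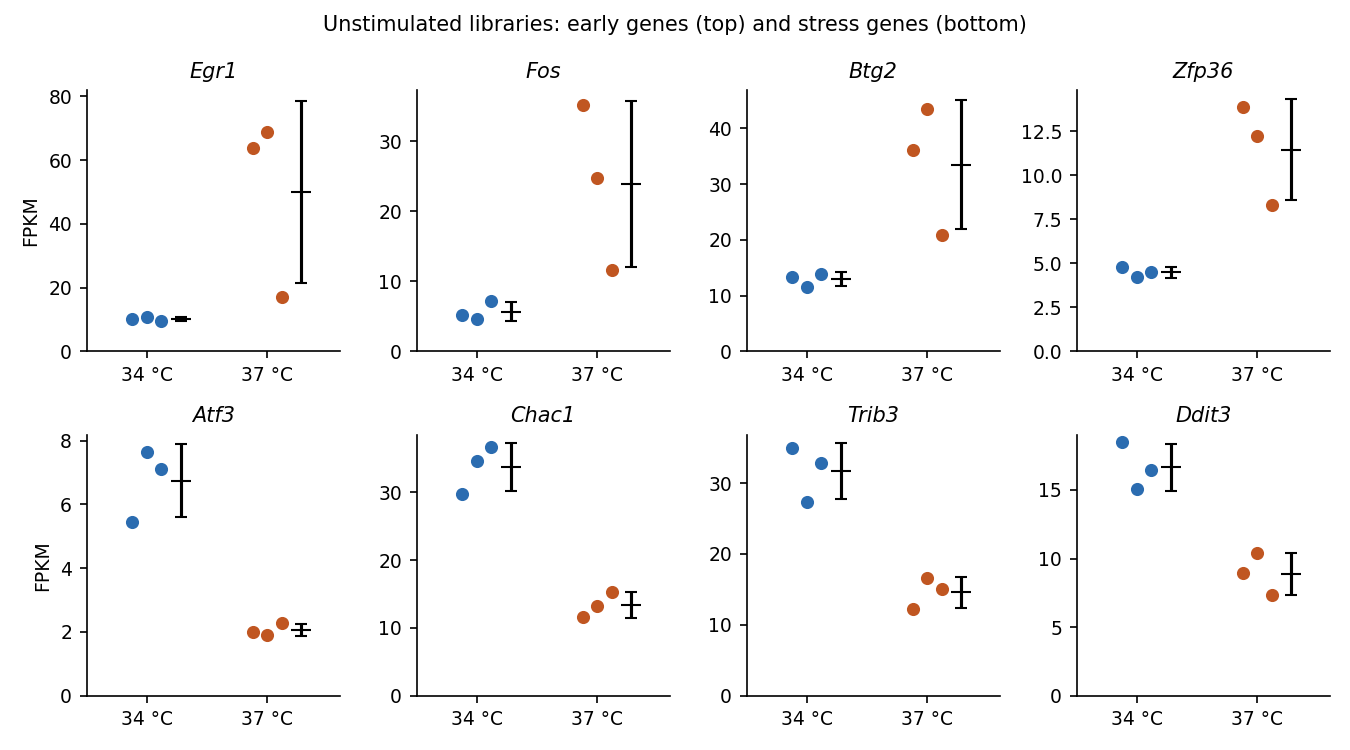
FPKM in each unstimulated library (points, replicates 1 to 3 from left to right) at 34 °C and 37 °C for 4 early genes (top) and 4 stress genes (bottom); bars give the mean ± SD of 3 libraries. In all 8 genes the points of the temperatures do not overlap, and in Egr1 and Fos the 37 °C points are spread out, with means of 49.9 ± 28.5 and 23.9 ± 11.8 FPKM.

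Genes of the integrated stress response moved the other way. Of 30 measured members, 6 rose at 34 °C and 0 fell, and the median was 0.27. A positive estimate was found in 27 of the 30, and in 4689 of all 10122 genes. The 6 were the transcription factors Atf3 and Ddit3, the pseudokinase Trib3, the glutathione-degrading enzyme Chac1, the amino acid transporter Slc7a1 and Sesn2, an inhibitor of mTOR signalling. Atf3 had 5.46, 7.65 and 7.12 FPKM at 34 °C, against 2.00, 1.91 and 2.28 FPKM at 37 °C. Chac1 had 29.8, 34.6 and 36.7 FPKM at 34 °C, against 11.6, 13.3 and 15.3 FPKM at 37 °C. In both genes every 34 °C library stood far above every 37 °C library. Their log2 changes were 1.33 (SE 0.20, limma adjusted p = 0.00015) for Atf3 and 1.27 (SE 0.21, adjusted p = 0.00025) for Chac1, and both stayed called without any 1 library.

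Trib3, which is induced by ATF4 and by Ddit3 and restrains both, had 35.0, 27.4 and 32.8 FPKM at 34 °C, against 12.2, 16.6 and 15.0 FPKM at 37 °C. Its log2 change of 1.07 (SE 0.26) was just past the threshold (limma adjusted p = 0.0487) and was not called in any of the 6 fits without 1 library. The call for Trib3 was also lost with pseudocounts of 0.1 (adjusted p = 0.0603) and 0.5 (0.055) and with no variance trend (0.0619). A replicate block in the fit to all 60 libraries lost it as well. Ddit3 encodes CHOP, a C/EBP-family factor of prolonged stress, and had 18.5, 15.0 and 16.4 FPKM at 34 °C, against 8.92, 10.4 and 7.35 FPKM at 37 °C (log2 change 0.84, SE 0.19, adjusted p = 0.0217). Sesn2 had 15.3, 15.4 and 15.7 FPKM at 34 °C, against 8.75, 9.19 and 10.3 FPKM at 37 °C (log2 change 0.66, SE 0.15, adjusted p = 0.0263). The 34 °C libraries of Sesn2 were nearly equal, yet it too was called in 0 of the 6 fits without 1 library, and Ddit3 in 1 of them. Slc7a1, a carrier of arginine and lysine, rose with a log2 change of 0.46 (SE 0.11, adjusted p = 0.0312). Without 1 library, 2 to 4 genes of the list were called.

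Members of the list with the same function did not all pass the test. Asns, which makes asparagine, had 194 ± 19.3 FPKM at 34 °C, against 160 ± 11.8 FPKM at 37 °C (SD, n = 3 each; log2 change 0.27, limma adjusted p = 0.363). The subunits of the large neutral amino acid carrier, Slc7a5 and Slc3a2, had log2 changes of 0.28 and 0.27 (adjusted p = 0.519 and 0.293). Ppp1r15a, the eIF2α phosphatase subunit that ends the response, had 0.21 (adjusted p = 0.986), and Psat1 and Phgdh, enzymes of serine synthesis, had 0.06 each. Of 12 measured aminoacyl-tRNA synthetase genes, which ATF4 also regulates, 0 were called and the median was 0.09. Of 15 measured genes of the unfolded protein response in the endoplasmic reticulum, 0 were called and the median was 0.03, with Herpud1 at 0.49 (adjusted p = 0.599) and Eif2ak3, the kinase PERK, at -0.34 (adjusted p = 0.363).

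The promoters of these genes were read to show which known response elements the genes that rose or fell carry near their start. RefSeq windows of 300 bases (250 before the start to 50 after it, assembly GRCm38.p6) were at hand for 27 of the 37 called genes and for 7500 genes of the table; a gene with several starts counts once, if any of its windows holds the letters. The letters TGATGNAA, the core of the composite C/EBP-ATF element through which ATF4 and CHOP act, were searched on both strands. They were found in Atf3, Chac1, Trib3 and Arid5a, 4 of 16 genes that rose and have a window, in 0 of 11 that fell, and in 192 of the 7500 genes (2.56%). In the stress list they were found in 10 of 28 measured members with a window. This core was chosen after the longer TGATGNAAT, which contains it, had been found in 0 called genes, in 3 of the 28 and in 39 of the 7500 genes (0.52%). The stretches below show where the core lies, in capitals, as TTGCATCA or TTACATCA on the printed strand. It begins 110 bases before the start of Atf3, 193 bases before that of Chac1 and 14 bases after that of Trib3. Atf3 and Chac1 are shown for the 250 bases before the start, and Trib3 for 30 bases around the core, each 5′ to 3′ on the gene's strand; Atf3 is chr1:191183334-191183583 (minus), Chac1 chr2:119350992-119351241 (plus) and Trib3 chr2:152344028-152344057 (minus).
Atf3: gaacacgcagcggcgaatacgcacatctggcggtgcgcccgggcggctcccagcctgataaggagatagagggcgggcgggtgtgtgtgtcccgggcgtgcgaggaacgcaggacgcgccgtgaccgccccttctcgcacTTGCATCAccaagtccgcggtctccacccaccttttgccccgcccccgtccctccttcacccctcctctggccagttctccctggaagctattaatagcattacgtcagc
Chac1: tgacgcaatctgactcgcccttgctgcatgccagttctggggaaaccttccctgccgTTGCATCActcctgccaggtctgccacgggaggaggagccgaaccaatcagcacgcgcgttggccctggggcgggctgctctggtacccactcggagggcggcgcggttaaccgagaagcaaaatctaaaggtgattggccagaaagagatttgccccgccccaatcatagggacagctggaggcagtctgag
Trib3: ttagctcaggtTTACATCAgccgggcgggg

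Among the early genes that fell, 4 of 6 have a window, and 1 element was found in each of Btg2 and Zfp36. Sites more than 250 bases before a start were not read, for Fos and Jun as for the others. Btg2 holds TGACGTCA, the cAMP response element, 166 bases before its start, as 276 of the 7500 genes do (3.68%), St7 among them. Zfp36 holds a CArG box, the site of serum response factor, 58 bases before its start, as 115 of the 7500 genes do (1.53%). The letters TGANTCA, with any base at N, are wider than the AP-1 site TGACTCA. They were found in 442 of the 7500 genes (5.89%), and in Ddit3, Slc7a1 and Nfya among called genes, there as TGACTCA. The 250 bases before each start are shown with the element in capitals, 5′ to 3′ on the gene's strand; Btg2 is chr1:134079156-134079405 (minus) and Zfp36 chr7:28379229-28379478 (minus). These matches describe the sequence and say nothing of what binds there in these cells.
Btg2: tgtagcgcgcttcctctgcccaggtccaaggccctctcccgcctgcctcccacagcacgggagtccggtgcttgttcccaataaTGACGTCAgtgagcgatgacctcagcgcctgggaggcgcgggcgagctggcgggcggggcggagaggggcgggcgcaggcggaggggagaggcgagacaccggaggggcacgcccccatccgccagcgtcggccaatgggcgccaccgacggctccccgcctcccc
Zfp36: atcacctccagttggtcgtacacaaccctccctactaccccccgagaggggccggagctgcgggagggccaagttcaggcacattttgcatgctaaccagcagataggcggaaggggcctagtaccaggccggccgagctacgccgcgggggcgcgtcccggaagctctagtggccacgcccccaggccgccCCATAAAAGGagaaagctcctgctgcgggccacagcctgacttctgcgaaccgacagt

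The remaining genes that rose include regulators of inflammation, metabolism and growth. Arid5a, an RNA-binding protein that stabilises Il6 mRNA, had 11.0, 14.2 and 10.3 FPKM at 34 °C, against 4.40, 6.08 and 4.74 FPKM at 37 °C, with a log2 change of 1.08 (SE 0.20, limma adjusted p = 0.0024). Without replicate 2 of 34 °C its log2 change was 0.95 (adjusted p = 0.0501). Gadd45a, a growth arrest gene of the DNA damage response, had 28.0, 36.1 and 33.8 FPKM at 34 °C, against 23.3, 12.3 and 18.8 FPKM at 37 °C (log2 change 0.85, SE 0.19, adjusted p = 0.026). Replicate 2 of 37 °C was its lowest library, and without it Gadd45a had a log2 change of 0.61 (adjusted p = 0.375). Il17ra, a subunit of the interleukin-17 receptor, rose by 0.62 on the log2 scale (adjusted p = 0.0363).

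Sgk1, a kinase induced by serum and glucocorticoid, was the most abundant called gene, with 272, 266 and 249 FPKM at 34 °C, against 185, 196 and 150 FPKM at 37 °C. Its log2 change was 0.57 (SE 0.11, limma adjusted p = 0.00556), and 0.46 (adjusted p = 0.146) without replicate 3 of 37 °C, the lowest library. Hk2, the hexokinase that starts glycolysis, had 40.8, 45.3 and 37.9 FPKM at 34 °C, against 29.8, 25.7 and 27.7 FPKM at 37 °C (log2 change 0.56, SE 0.13, adjusted p = 0.0274). The other 17 of 18 measured hypoxia and glycolysis genes were not called. Slc20a1, a phosphate carrier, rose by 0.49, St7 by 0.46, Dlc1 by 0.43, Nup62, a nuclear pore protein, by 0.41 and Arl4c, a small GTPase, by 0.34 on the log2 scale. Their adjusted p in limma ran from 0.00556 for Dlc1 to 0.0376 for Arl4c. Where their exons overlap, reads of Nup62 cannot be told apart from those of Il4i1 (88 bases) and Atf5 (82 bases). Gadd45a, St7 and Slc20a1 overlap antisense transcripts in part of their exons, and no strand setting is given, so reads there cannot be told apart either. St7 also overlaps noncoding RNA models on its own strand, over 109 to 136 bases each.

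Outside the early genes, the falls were led by Banp, a nuclear protein that binds unmethylated CGCG-containing promoters. It had 4.99, 6.18 and 5.02 FPKM at 34 °C, against 11.7, 9.11 and 16.1 FPKM at 37 °C (log2 change -1.03, SE 0.19, limma adjusted p = 0.0024), and -0.83 (adjusted p = 0.0918) without replicate 3 of 37 °C. The 37 °C libraries of Banp were spread widely, and replicate 3 was the highest, whereas in Egr1, Fos, Btg2 and Zfp36 it was the lowest. Rsrp1, an arginine- and serine-rich nuclear protein, had 34.0, 26.6 and 26.6 FPKM at 34 °C, against 46.5, 47.1 and 46.6 FPKM at 37 °C (log2 change -0.68, SE 0.13, adjusted p = 0.00556). Its 37 °C libraries were nearly equal. Carmn, a long noncoding RNA of smooth muscle and cardiac cells, had 16.0, 19.5 and 26.4 FPKM at 34 °C, against 30.8, 33.6 and 45.6 FPKM at 37 °C (log2 change -0.81, SE 0.17). Nfya, a subunit of the CCAAT-binding factor NF-Y, fell by 0.71 and Ahdc1, an AT-hook protein, by 0.64 on the log2 scale.

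The smaller falls were in Phlda1 (by 0.56), a pleckstrin-homology-like protein of the early response to growth factors, the zinc finger gene Zfp217 (by 0.56), Cdc42se1 (by 0.54), which binds the GTPase Cdc42, and the histone demethylase gene Kdm5b (by 0.51). Rassf3, of the Ras-association family, fell by 0.35 and Fem1b, a substrate receptor of a ubiquitin ligase, by 0.30. In limma their adjusted p ran from 0.0139 for Phlda1 to 0.0361 for Rassf3, whose call was lost after median rescaling (adjusted p = 0.0644) and quantile normalization (adjusted p = 0.104). Phlda1 had 30.1, 33.3 and 34.1 FPKM at 34 °C, against 47.1, 49.8 and 48.7 FPKM at 37 °C, so that each group lay within a few FPKM. Kdm5b had 6.05, 6.37 and 6.57 FPKM at 34 °C, against 9.37, 9.48 and 9.46 FPKM at 37 °C, also with little spread, and yet was called in 0 of the 6 fits without 1 library. Exons of Zfp36, Jun, Phlda1, Banp, Cdc42se1, Bhlhe40 and Ddit3 overlap genes on the opposite strand, over 13 to 624 bases (Phlda1), with 13 and 68 bases in Ddit3. Ddit3 also shares 63 bases with another gene model of that name on the same strand. Reads within those stretches cannot be told apart from reads of the other gene. Of the 35 named genes, 7 were called in all 6 fits without 1 library, namely Egr1, Btg2, Arc, Zfp36, Jun, Chac1 and Atf3, and 3 in none, namely Kdm5b, Sesn2 and Trib3.

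**Figure D3:**
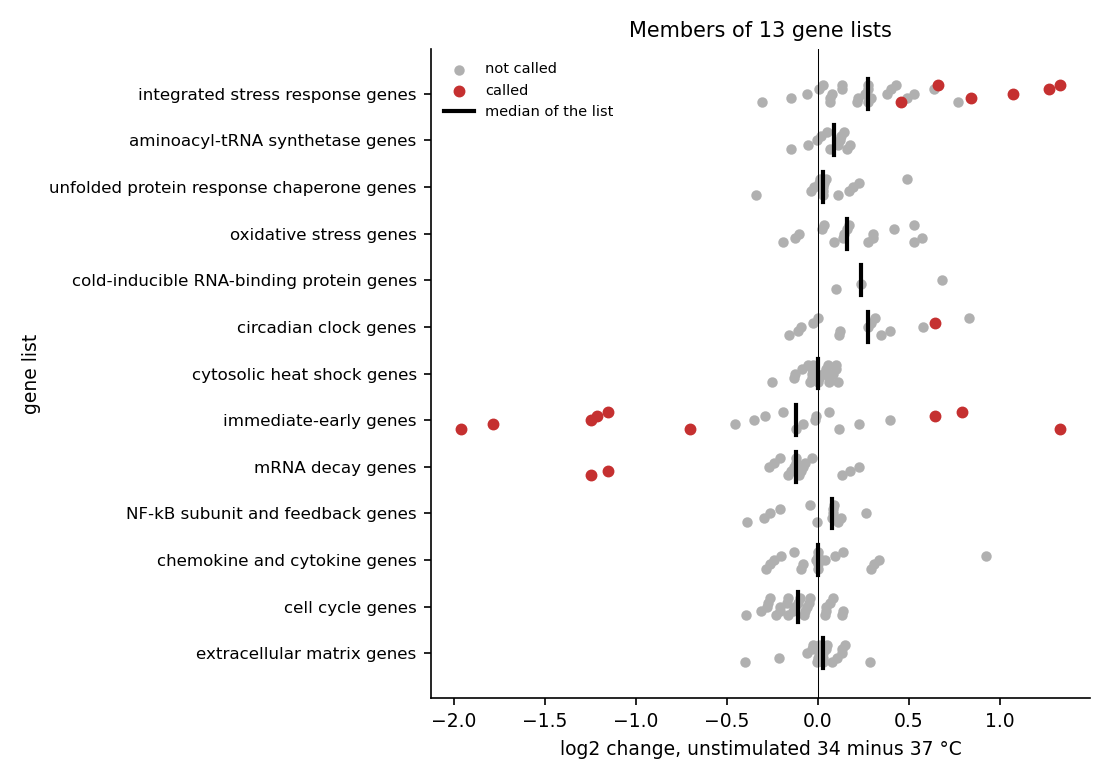
The log2 change (34 minus 37 °C, unstimulated) of each measured member of 13 gene lists, with called genes in red and the median of each list as a bar. Integrated stress response genes lie mostly right of 0 with a median of 0.27, immediate-early genes include the largest falls, and 0 of 21 cytosolic heat shock genes and 0 of 13 NF-κB genes are called.

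The genes best known for cold, heat and inflammation were not called in resting cells. Cirbp, the cold-inducible RNA-binding protein, had 29.1, 27.8 and 35.3 FPKM at 34 °C, against 23.6, 20.7 and 13.4 FPKM at 37 °C (log2 change 0.68, SE 0.23, limma adjusted p = 0.379). Its groups did not overlap, but the 37 °C libraries varied. Rbm3, the second such protein, had 457 ± 43.0 FPKM at 34 °C, against 425 ± 8.40 FPKM at 37 °C (SD, n = 3 each; log2 change 0.10, adjusted p = 1). All 21 cytosolic heat shock genes were uncalled, with a median of 0.00, and the inducible Hsp70 genes Hspa1b and Hspa1a had log2 changes of -0.25 (adjusted p = 0.738) and -0.04 (adjusted p = 1).

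Of 13 measured NF-κB subunit and feedback genes 0 were called, and the median was 0.07. Rel, which encodes c-Rel, had 2.40, 2.56 and 1.98 FPKM at 34 °C, against 2.49, 2.13 and 2.34 FPKM at 37 °C (log2 change -0.01, SE 0.09, limma adjusted p = 1). The groups overlapped, and at this depth a level near 2 FPKM is coarse. Relb and Nfkb1, further subunits, had log2 changes of -0.04 and 0.13, and the inhibitors Nfkbia and Tnfaip3 had -0.30 (adjusted p = 0.609) and -0.27 (adjusted p = 0.572). Of 19 measured chemokine and cytokine genes 0 were called, with Cxcl1 at -0.29, Il6 at -0.27 and Ccl2 at 0.34. Replicate 3 of 37 °C, low in Egr1, was also the lowest in Cxcl1, at 3.66 FPKM against 11.8 and 13.5 FPKM in the other two.

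Other lists held few or no called members. Of 15 measured circadian clock genes 1 was called, Bhlhe40, with a median of 0.28 over the list. Of 16 p53 targets 2 rose, Gadd45a and Sesn2, and 1 fell, Btg2. Of 14 MAP kinase feedback genes 1 fell, Phlda1. Oxidative stress genes (17 measured, median 0.16), cell cycle genes (27, median -0.11), extracellular matrix genes (21, median 0.03), cholesterol genes (19, median -0.04), interferon-stimulated genes (12, median -0.07) and cytosolic ribosomal protein genes (19, median 0.01) held 0 called members each. The 25 lists together hold 391 measured genes, and 17 of the 37 called genes are among them, some in several lists. The lists were drawn up with earlier results of these data known.

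The same temperature step was then read in the 24 cytokine-treated libraries at 34 and 37 °C. None of them gives a level in the unstimulated comparison, but both comparisons take their spread from the same fit, so their tests are not separate. Averaged over TNF-α and IL-1β at 1 and 3 h (12 libraries against 12), 1077 genes were called by limma (10.6%), 417 higher (4.12%) and 660 lower (6.52%) at 34 °C. The split depended on the scaling, with 555 higher and 592 lower after rescaling by the median ratio, and 500 higher and 545 lower after quantile normalization. Each condition alone has 3 libraries per temperature, as the unstimulated cells have, and gave 32 calls for TNF-α at 1 h (0.316%), 177 at 3 h (1.75%), 25 for IL-1β at 1 h (0.247%) and 159 at 3 h (1.57%). The cells at 3 h had spent the longest at their temperature, so the hours at 34 °C and the hours with cytokine cannot be told apart. Of the 37 genes called in resting cells, 29 were called in the same direction in the cytokine average and 0 in the opposite one. These 29 are 78.4% of the 37 and 2.69% of the 1077. In the single conditions, fewer of the 37 were called in the same direction. These were 4 with TNF-α at 1 h, 10 at 3 h, 6 with IL-1β at 1 h and 19 at 3 h. Some of the 29 were not called with the conditions of 1 h alone, Atf3, Chac1, Jun and Hk2 among them. With those of 3 h alone, Zfp217 and Fem1b were among the calls lost. Both alternatives were chosen after the data were seen.

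Banp and Arc fell, and Sgk1, Ddit3, Trib3 and Klf4 rose, at 34 °C with cytokine as well as without. The call for Trib3, fragile in resting cells, was also lost in the cytokine comparison with the conditions of 3 h alone (limma adjusted p = 0.117). Banp had the largest fall of the 37 genes in the cytokine average, with a log2 change of -1.35 (SE 0.09, limma adjusted p = 3.4e-14) beside -1.03 in resting cells. Sgk1 had 0.67 (SE 0.06, adjusted p = 1.2e-11) beside 0.57, Rsrp1 -0.62 (SE 0.07, adjusted p = 5.5e-09) beside -0.68, Ddit3 0.74 (SE 0.09, adjusted p = 1.5e-07) beside 0.84, and Klf4 0.59 (SE 0.08, adjusted p = 3.9e-07) beside 0.79. With TNF-α for 3 h, Ddit3 averaged 39.5 ± 2.69 FPKM at 34 °C and 19.3 ± 2.69 FPKM at 37 °C (SD, n = 3 each). Of 30 integrated stress response genes, 20 rose and 2 fell in the cytokine average, with a median of 0.23. Ppp1r15a, uncalled in resting cells, had a log2 change of 0.92 (adjusted p = 1e-09) there, with 81.2 ± 12.7 FPKM at 34 °C and 40.8 ± 5.30 FPKM at 37 °C after 1 h of TNF-α.

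Lists that gave no call in resting cells gave calls in this larger comparison. All 3 cold-inducible genes rose, with Cirbp at a log2 change of 0.94 (SE 0.12, limma adjusted p = 8.6e-08) and Rbm3 at 0.23 (adjusted p = 0.00414). After 3 h of IL-1β, Cirbp averaged 33.3 ± 1.94 FPKM at 34 °C and 14.9 ± 2.81 FPKM at 37 °C (SD, n = 3 each). Of 17 oxidative stress genes 10 rose and 0 fell, with a median of 0.37, and of 12 aminoacyl-tRNA synthetase genes 5 rose and 0 fell. Hspa1b fell by 0.40 (adjusted p = 6.4e-06). For none of these did the temperature difference itself differ between resting and cytokine-treated cells at an adjusted p below 0.05.

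**Figure D4:**
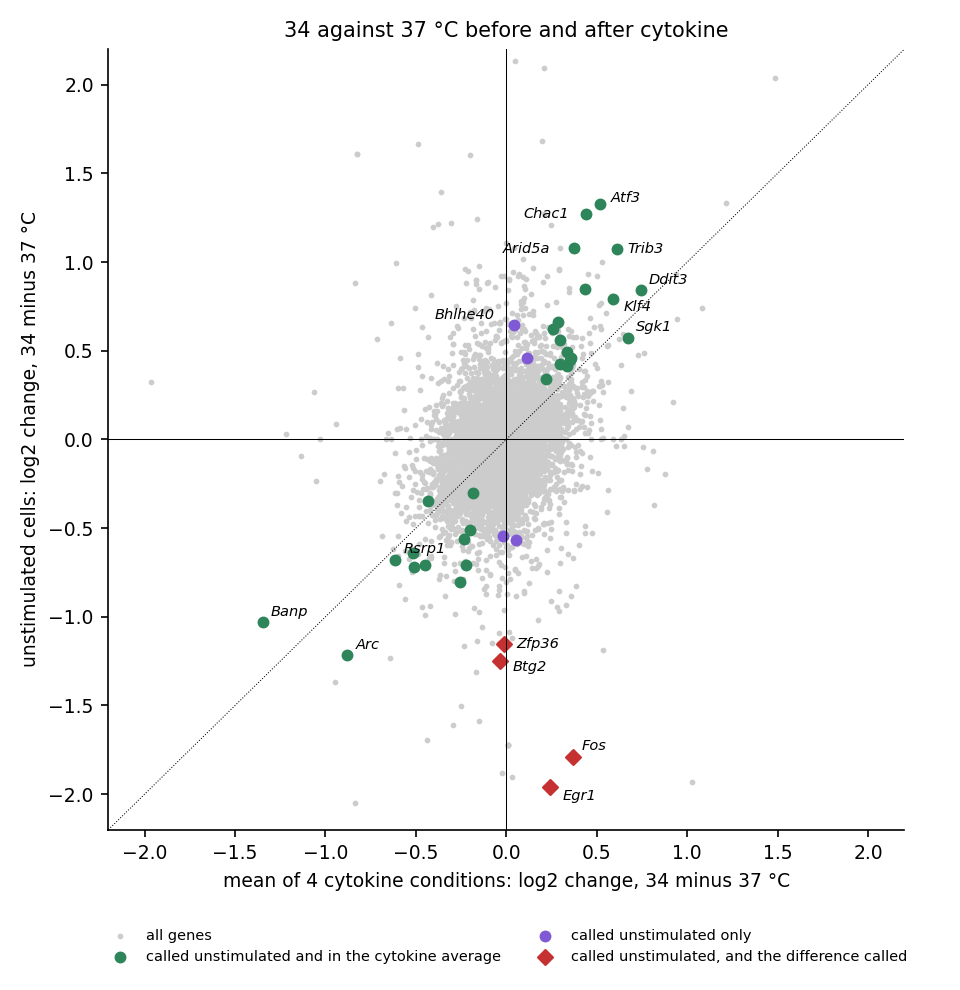
The log2 change (34 minus 37 °C) of each gene in unstimulated cells (vertical) against its mean over 4 cytokine conditions (horizontal), with genes called in unstimulated cells coloured; 8 genes, none of them called in unstimulated cells, lie outside the axes. Banp and Arc fall on both axes, Sgk1 and Ddit3 rise on both, and Egr1, Fos, Btg2 and Zfp36 (diamonds), which fall in unstimulated cells, lie at -0.03 to 0.37 in the cytokine mean.

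For 4 of the early genes that fell in resting cells, the temperature difference was not the same with cytokine. Tested directly, the temperature difference in unstimulated cells minus that in the cytokine average was called by limma in 5 genes (0.0494%), all with a negative value, and 442 (4.37%) had an unadjusted p below 0.05. They were Egr1 (-2.20, SE 0.34, adjusted p = 0.00023), Fos (-2.16, SE 0.40, adjusted p = 0.00402), Btg2 (-1.21, SE 0.17, adjusted p = 1.5e-05), Zfp36 (-1.14, SE 0.15, adjusted p = 1.5e-05) and Ier3 (-0.56, SE 0.10, adjusted p = 0.00272). In the cytokine average itself Egr1, Fos, Btg2 and Zfp36 were not called, at log2 changes of 0.24, 0.37, -0.03 and -0.01. After 1 h of TNF-α, Egr1 averaged 137 ± 41.6 FPKM at 34 °C and 74.7 ± 34.4 FPKM at 37 °C, and Zfp36 31.5 ± 1.51 FPKM at 34 °C and 27.8 ± 0.19 FPKM at 37 °C (SD, n = 3 each). After 3 h, Egr1 averaged 9.32 ± 1.15 FPKM at 34 °C and 12.9 ± 2.75 FPKM at 37 °C. Ier3, an early gene that modulates survival, was not called in resting cells (log2 change -0.29, adjusted p = 0.254) and rose in the cytokine average (0.27, adjusted p = 2e-05).

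These differences depended on which libraries were used. With the 30 libraries of the contrast alone, 4 genes were called, 3 lower and 1 higher, and Egr1 (adjusted p = 0.0571) and Fos (adjusted p = 0.113) were not among them. With the cytokine conditions of 3 h alone, an alternative chosen after the data were seen, 2 of the 5 remained, Btg2 and Zfp36, and with those of 1 h alone 8 genes were called. Between 3 and 9 genes were called when 1 library was left out. The call for Ier3 was lost without replicate 2 of unstimulated 37 °C (adjusted p = 0.0656), and that for Fos without replicate 1 (adjusted p = 0.104) or replicate 2 (adjusted p = 0.0579) of unstimulated 37 °C or replicate 2 of unstimulated 34 °C (adjusted p = 0.0516). Phlda1 (-0.62, adjusted p = 0.063) and Bhlhe40 (0.60, adjusted p = 0.0867) did not pass the test of the difference, and whether their change differs between resting and treated cells is not settled by these libraries.

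**Figure D5:**
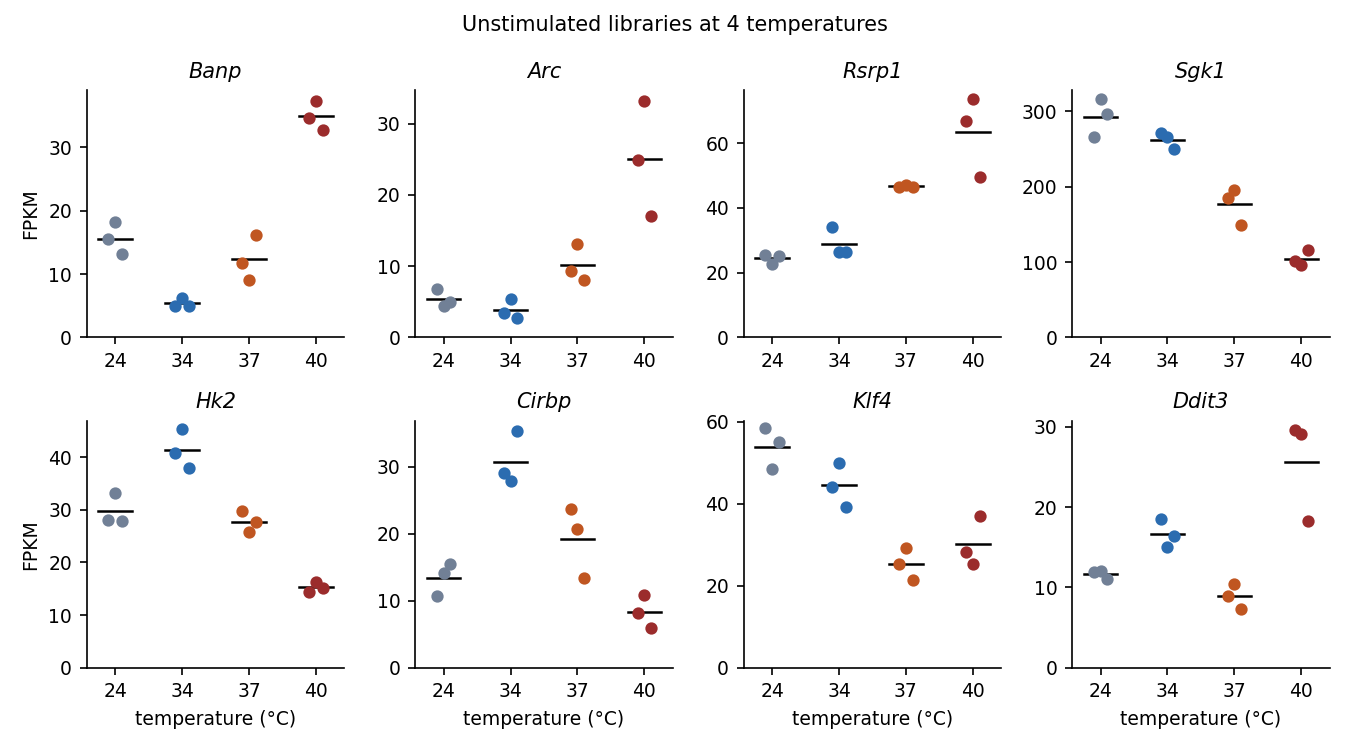
FPKM of 8 genes in the 3 unstimulated libraries at each of 24, 34, 37 and 40 °C (points), with the mean as a line. The mean of Sgk1 declines with each step from 24 to 40 °C, that of Rsrp1 climbs, Hk2 and Cirbp have their highest mean at 34 °C and Banp its lowest.

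The unstimulated libraries at 24 and 40 °C place the 34 °C levels in a wider range. They are given as levels, since any change from 37 °C at these temperatures uses the same 37 °C libraries. The called genes were picked on these 34 and 37 °C libraries, so the order of 34 and 37 °C was fixed by that choice. It also favours an extreme at 34 °C, which is therefore no independent result. The 24 °C libraries carry the last block of library numbers, and whether they were prepared apart is not given, so 24 °C and such a block cannot be told apart. Sgk1 averaged 292 ± 25.8, 262 ± 11.5, 177 ± 24.1 and 105 ± 10.2 FPKM at 24, 34, 37 and 40 °C (SD, n = 3 each, as for the means that follow). Rsrp1 averaged 24.4 ± 1.45, 29.0 ± 4.28, 46.7 ± 0.33 and 63.4 ± 12.5 FPKM. In Sgk1 the libraries at 24 and 34 °C overlapped, and in Rsrp1 the highest at 24 °C was just below the lowest at 34 °C. In both genes those at 34, 37 and 40 °C did not overlap.

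Other genes had their extreme at 34 °C. Hk2 averaged 29.7 ± 3.10, 41.3 ± 3.74, 27.7 ± 2.06 and 15.3 ± 0.97 FPKM at 24, 34, 37 and 40 °C, and Cirbp 13.4 ± 2.49, 30.7 ± 4.04, 19.2 ± 5.27 and 8.35 ± 2.47 FPKM. In Hk2 the 24 and 37 °C libraries overlapped and the 34 °C libraries stood above both. Banp averaged 15.6 ± 2.59, 5.40 ± 0.68, 12.3 ± 3.53 and 34.9 ± 2.31 FPKM, lowest at 34 °C. Chac1 averaged 15.3 ± 2.29, 33.7 ± 3.54, 13.4 ± 1.88 and 24.3 ± 9.13 FPKM, and Trib3 14.6 ± 0.70, 31.7 ± 3.92, 14.6 ± 2.20 and 13.8 ± 5.65 FPKM, both with their highest mean at 34 °C, although 1 library of Chac1 at 40 °C reached its 34 °C range.

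Most of the early genes that fell also had their lowest mean at 34 °C, and all but Arc had their highest at 24 °C. They had been picked as lower at 34 than at 37 °C, so that part of the order is no finding here. Egr1 averaged 184 ± 24.8 FPKM at 24 °C, 10.2 ± 0.64 FPKM at 34 °C, 49.9 ± 28.5 FPKM at 37 °C and 9.32 ± 2.33 FPKM at 40 °C, so it was low at 34 and 40 °C and high at 24 °C. Fos averaged 72.0 ± 14.0, 5.67 ± 1.34, 23.9 ± 11.8 and 10.2 ± 4.20 FPKM at these temperatures. Btg2 averaged 49.2 ± 2.56, 12.9 ± 1.24, 33.5 ± 11.6 and 25.5 ± 6.10 FPKM, and Zfp36 29.7 ± 2.90, 4.50 ± 0.31, 11.5 ± 2.85 and 9.85 ± 1.84 FPKM, both lowest at 34 °C. Jun averaged 46.0 ± 1.21, 14.0 ± 1.64, 23.4 ± 1.92 and 18.9 ± 3.59 FPKM, and so followed the same order of means as Fos, Btg2 and Zfp36. Arc alone among them was low at both cooler temperatures, at 5.37 ± 1.22, 3.83 ± 1.35, 10.2 ± 2.66 and 25.0 ± 8.02 FPKM.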

How the data were processed

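Total RNA was sequenced from 60 libraries, 20 groups of 3. The authors deposited 1 table of FPKM values for 10122 genes. GRCm39, edgeR, RSEM 1.3.3 and STAR 2.7.11b appear in the submitters' processing notes, with no role or order. All 10122 gene identifiers are those of GENCODE M21, so no gene coordinates are given from the table. FPKM removes depth and length, so a large change in a few abundant RNAs shifts all other values. Values were taken as log2(FPKM + 1), which understates changes of low genes. A gene had to reach 1 FPKM in 3 libraries, which removed 0 genes. A mean for each of the 20 groups was fitted by limma (version 3.58.1 under R 4.3.3), whose variances were shrunk towards a trend over mean expression; 40 degrees of freedom were residual and 4.37 prior. All tests are two-sided, with p adjusted over all genes (Benjamini-Hochberg) and a threshold of 0.05. The procedure was tested on simulated data in which each gene had the same spread in all groups. Genes whose spread differs between groups, such as Egr1, were therefore not covered. Depth was estimated from 1651 genes with 1 transcript, by the depth that brought 84.4% to 89.3% of the values used within 0.15 of a whole fragment. That share was what the estimate was tuned to, so it is no independent check. Structural RNA genes, 5 in all (Rmrp and Rpph1 among them), took 43.9% to 46.9% of the summed FPKM.

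Named genes were every called gene with a name, the called members of each list or else up to 3 members with the largest change, the 10 genes with the smallest p in the test of the difference, and 13 genes fixed by name. Members and lists were chosen with earlier results of these data known. Alternatives were pseudocounts of 0.1 and 0.5, no filter, a mean of at least 5 FPKM, rescaled or quantile-normalized libraries, other variance models, fewer libraries, a replicate block and each replicate left out.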

Additional observations from a re-analysis of the deposited data

Results flagged for a closer look

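For 5 genes the difference between 34 and 37 °C in unstimulated cells was itself different from that in cytokine-treated cells, by a direct test in limma. The value is the log2 change at 34 against 37 °C in unstimulated cells minus its mean over the 4 cytokine conditions. It was -2.20 for Egr1, -2.16 for Fos, -1.21 for Btg2, -1.14 for Zfp36 and -0.56 for Ier3. The unstimulated libraries differ from the cytokine-treated ones both in cytokine and in the hours at the temperature, which cannot be told apart.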

How the results depend on the processing

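The 37 calls of the unstimulated comparison were 36 to 41 under other pseudocounts, filters, scalings and variance models and under a replicate block over all 60 libraries (41). They were 0 with the 6 libraries alone, 0 with the 12 unstimulated libraries and 0 with the replicate block in the 6 libraries, and so were the counts of integrated stress response genes that rose (6) and of immediate-early genes that fell (6). Those fits have fewer residual degrees of freedom and take the spread from fewer groups. Without 1 library the counts ran from 14 to 28, 2 to 4 and 5 to 6. The cytokine average gave 220 calls from the conditions of 1 h and 707 from those of 3 h, both chosen after seeing the data, and 958 to 1036 without 1 library. The 5 differences became 9 with the replicate block, 8 with the conditions of 1 h, 2 with those of 3 h (also chosen after seeing the data), 4 (3 lower and 1 higher, without Egr1 and Fos) with the libraries of the contrast alone, and 3 to 9 without 1 library. The cause was not tested.

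Whether the replicate numbers pair the libraries is not settled. Deviations from the group means correlated weakly, at 0.0973, 0.0144 and 0.0825 for numbers 1 to 3. Yet each library correlated best with its own number, for replicate 2 of 37 °C only just, and unlike numbers gave -0.0956 to 0.0140. Deviations within a group sum to 0, so positive values for like numbers lower those for unlike ones. The main fit leaves the numbers out, and the replicate block over all 60 libraries raised the calls of the cytokine average from 1077 to 1312. Of 2347 recomputed gene values, 2050 kept direction and side of the threshold, 286 lost the call and 11 changed sign, 10 of them uncalled changes in resting cells. Without 1 library Hspa1a ran from -0.24 to 0.076, Rel from -0.059 to 0.069, Relb from -0.20 to 0.049 and Cxcl1 from -0.80 to 0.017. Rel became 0.0044 with rescaled and 0.032 with quantile-normalized libraries, and Relb, called as lower in the cytokine average (-0.26), became 0.061 (adjusted p in limma 0.794) with the conditions of 3 h. The cause was not tested. Depth limits genes of a few FPKM.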
